A study of Mus musculus with 6 samples.

Results

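Stat2, Irf1, Irf3 and Irf9, transcription factors of the interferon pathway, and B2m and Tap2, components of class I antigen presentation, were described in mouse Neuro-2a neuroblastoma cells that expressed TATA-binding protein (TBP) with an expanded glutamine stretch. The 6 genes are part of 6788 genes named on the array. They were chosen by gene symbol with their Z-ratios in this same comparison already known, so their values are given as a description and no test of them is offered. Each gene was represented by 1 cDNA clone printed as 2 neighbouring spots, which makes 12 of 31200 spots. Neuro-2a cells were transiently transfected with GFP tagged human TBP of CAG repeat length 59 (59Q) or with the GFP vector pEGFPN3 (N3), so both groups carried a GFP plasmid, and each RNA sample held transfected and untransfected cells together. Total RNA was taken after 60 h, and 1 59Q and 1 N3 sample were hybridized against each other on each of 6 two-colour arrays. 59Q was labelled with Cy5 on replicates 1, 3, 4 and 6 and with Cy3 on replicates 2 and 5.

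The measurement is the Z-ratio that the authors deposited for every spot, the difference between both samples in units of its spread over the array. A Z-ratio is a score without a fold scale, and it gives no level of a gene. The sources used here do not say in which direction the ratio was taken on each array. Values are therefore given as deposited, with a value above 0 taken as higher in 59Q transfected cells, with N3 called the control in the methods, but the direction is not settled. The mean with the sign of replicates 2 and 5 turned, which would apply to values that run Cy5 over Cy3, is given beside it as the turned mean. In pooled RNA, a change in few cells and a smaller change in all cells cannot be told apart.

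Interferons are secreted proteins that warn neighbouring cells of infection. Type I interferon receptors activate the kinases Jak1 and Tyk2, which phosphorylate Stat2, and Stat2 joins Irf9 in a complex that switches on genes with an interferon-stimulated response element (ISRE). Interferon gamma acts on genes with gamma-activated sites (GAS), and Irf1 is one of the first genes switched on in this way. Irf3 acts earlier, since it is activated when a cell senses foreign nucleic acid and then drives transcription of interferon beta itself. Among the products of these signals is the class I pathway, in which the proteasome cuts proteins to peptides, the Tap1 and Tap2 transporter carries them into the endoplasmic reticulum, and heavy chains bound to B2m present them at the cell surface. Neurons and neuroblastoma cells are known for low class I expression at rest.

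The promoters are shown because the transfected factor acts at promoters and because the ISRE and GAS are the sites through which this pathway feeds back on its own genes. RefSeq promoter windows (GRCm38.p6) were found for 5 of the 6 genes, in 7 windows, and the 250 bases before each start were searched on both strands for an ISRE core (GAAANNGAA), a GAS (TTCNNNGAA) and a TATA element (TATANAA). Over all 32851 windows of the same length, 7.13% held the ISRE core, 7.02% the GAS and 10.4% the TATA element. The windows of 3 genes held a match. They are printed below from 5′ to 3′ with the matches in capitals, and none of the matches overlapped another.
B2m, chr2:122147437-122147686, plus strand: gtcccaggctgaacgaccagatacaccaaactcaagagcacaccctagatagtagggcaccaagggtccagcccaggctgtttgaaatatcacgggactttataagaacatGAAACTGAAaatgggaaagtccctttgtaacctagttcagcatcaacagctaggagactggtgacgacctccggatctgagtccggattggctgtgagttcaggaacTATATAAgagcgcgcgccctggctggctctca
Stat2, chr10:128270248-128270497, plus strand: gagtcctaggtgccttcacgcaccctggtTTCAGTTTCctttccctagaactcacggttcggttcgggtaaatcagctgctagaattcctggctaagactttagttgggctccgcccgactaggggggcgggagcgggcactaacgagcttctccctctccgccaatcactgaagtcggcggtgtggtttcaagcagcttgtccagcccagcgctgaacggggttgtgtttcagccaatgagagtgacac
Irf1, chr11:53769764-53770013, plus strand: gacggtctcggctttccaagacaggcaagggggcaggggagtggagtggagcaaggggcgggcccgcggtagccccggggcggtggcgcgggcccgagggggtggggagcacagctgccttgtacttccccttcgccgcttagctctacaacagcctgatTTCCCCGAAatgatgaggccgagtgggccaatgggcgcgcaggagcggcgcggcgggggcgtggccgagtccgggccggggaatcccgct
In B2m the ISRE core GAAACTGAA lay 139 to 131 bases before the start and the TATA element TATATAA lay 32 to 26 bases before it. The TATA letters were chosen after this window had been read, so that match was known beforehand and nothing is read from its share over all windows. The same ISRE letters, GAAACTGAA, stood on the minus strand of the Stat2 window, 221 to 213 bases before the start. The GAS of Irf1, TTCCCCGAA, lay 90 to 82 bases before the start of its first window. The single window of Irf3, both windows of Irf9 and the second window of Irf1 held none of these letters. A match of letters is a description and not a bound site, and no binding was measured on these arrays.

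On every array the Z-ratios have an SD of 1, and 19 to 11234 spots per array had no value. Pearson's r across clones was 0.0504 to 0.341 in the 7 pairs of arrays that shared a dye orientation, and -0.498 to 0.0018 in the 8 pairs that did not. Tbp, the endogenous gene of the transfected factor, had Z-ratios of 2.92, 2.31, -0.0977, 0.176, 1.74 and 1.04 on replicates 1 to 6 (mean 1.35, turned mean -0.0015). Each is the mean of 2 clones. On replicate 6 these differed, with spots at 1.95 and 1.90 for 1 clone and at 0.262 and 0.0375 for the other. It was not tested whether the Tbp clones detect the human transcript. Tbp had means of 1.01 with 59Q in Cy5 and 2.02 with 59Q in Cy3. The study reported Actb, Eef2 and Eef1a1 as upregulated. Here Actb had means of 1.453 with 59Q in Cy5 and -1.432 with 59Q in Cy3. These were 1.514 and -1.475 for Eef2 and 1.507 and -1.38 for Eef1a1. With replicates 2 and 5 turned, Actb, Eef2 and Eef1a1 would have means above 0 in both orientations. Which direction applies was not tested. The cell type could not be checked from ratios, since a marker at 0 may be abundant in both samples. Of 18 neuroblast and neuron markers 5 were named on the array, with means from -0.318 for Gata3 to 0.568 for Tubb3 (turned means -0.0178 and 1.28). Of 14 immune cell markers 3 were named, all with means above 0 (0.0997 for H2-Eb1, 0.124 for Lyz2 and 0.403 for Fcer1g, with turned means of -0.141, -0.0335 and 0.641), while 3 of 8 fibroblast markers lay above 0. None of these markers passed in limma in either reading. As deposited 0 had an unadjusted p under 0.05, and in the turned reading Tubb3, Gap43 and Fcer1g did (limma adjusted p = 0.0666, 0.201 and 0.159, turned mean of Gap43 -0.637). Their part in the results was not tested.

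Stat2, a subunit of the type I interferon complex, had Z-ratios of -0.945, 1.67, 0.163, -0.572, 0.678 and 0.0495 on replicates 1 to 6. The 2 arrays with 59Q in Cy3 held the 2 highest values, and the arrays with 59Q in Cy5 lay on both sides of 0. The mean was 0.174 ± 0.929 (SD, n = 6 arrays), well within the spread between arrays. Without replicate 2 it was -0.125, so the sign of the mean rested on that array, where only 2.43% of clones lay higher than Stat2. After turning replicates 2 and 5 the mean was -0.609 ± 0.674 (SD, n = 6), with 4 of 6 arrays below 0.

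Irf9, the DNA-binding subunit that joins Stat2, did not follow its partner. Its Z-ratios were 1.38, 0.189, -0.614, 0.0216, 0.900 and -0.124, a mean of 0.293 ± 0.726 (SD, n = 6). Replicate 1 was highest for Irf9 and lowest for Stat2. Without replicate 1 the mean of Irf9 was 0.0746, and with replicates 2 and 5 turned it was -0.0703 ± 0.790 (SD, n = 6). Its duplicate spots stood on opposite sides of 0 on replicates 2, 4 and 6, farthest apart on replicate 2, at -0.317 and 0.695.

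Irf1, the early interferon gamma target, had Z-ratios of -0.791, 2.01, -0.403, -0.0631, 0.568 and -0.669. All 4 arrays with 59Q in Cy5 lay below 0 and both arrays with 59Q in Cy3 lay above it, so the orientations did not overlap. The mean as deposited was 0.109 ± 1.05 (SD, n = 6), without replicate 2 it was -0.272, and without replicate 5 it was 0.0175. With replicates 2 and 5 turned, Irf1 lay below 0 on 6 of 6 arrays, at -0.751 ± 0.668 (SD, n = 6). Of all clones with values on 6 arrays 17.3% had 1 sign throughout in that reading.

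Irf3, the factor that starts interferon beta transcription, had Z-ratios of -0.955, 0.478, 0.306, -0.802, 0.879 and -2.16, and it was the only one of the 6 genes with a mean below 0 as deposited, at -0.375 ± 1.14 (SD, n = 6). The values on replicates 3 and 6 came from 1 spot each, because the other spot had no value. The value of -2.16, the lowest of the gene, was one of these, and 1.73% of clones on that array lay lower. Without replicate 6 the mean was -0.0189. With replicates 2 and 5 turned it was -0.827 ± 0.799 (SD, n = 6), with 5 of 6 arrays below 0.

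B2m, the light chain shared by all class I molecules, had the highest mean of the 6 genes as deposited and the third highest in the turned reading. Its Z-ratios were -0.776, 3.02, 1.60, -0.106, 1.04 and 2.03, a mean of 1.13 ± 1.40 (SD, n = 6). Replicates 2, 3, 5 and 6 were high and replicates 1 and 4 were not. On the 4 high arrays between 0.28% and 5.98% of clones lay above B2m. These arrays include both dye orientations. Over all arrays of each orientation, high or not, the means were 0.687 ± 1.34 (SD, n = 4) for 59Q in Cy5 and 2.03 ± 1.40 (SD, n = 2) for 59Q in Cy3. With replicates 2 and 5 turned the mean became -0.218 ± 1.86 (SD, n = 6).

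Tap2, a subunit of the peptide transporter, had the smallest SD of the 6 genes. Its Z-ratios were 0.432, 0.673, 0.604, 0.315, 0.628 and 0.408, all above 0, with a mean of 0.510 ± 0.144 (SD, n = 6). All 12 spot values were above 0, from 0.152 to 0.808. None of the arrays placed Tap2 at an extreme, since 16.8% to 30.2% of clones lay higher on each. Tap2 was the only one of the 6 genes with 1 sign on all 6 arrays as deposited, against 1.38% of all clones with 6 values. With replicates 2 and 5 turned the mean was 0.0764 ± 0.571 (SD, n = 6), with 4 arrays above 0 and 2 below.

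**Figure D1:**
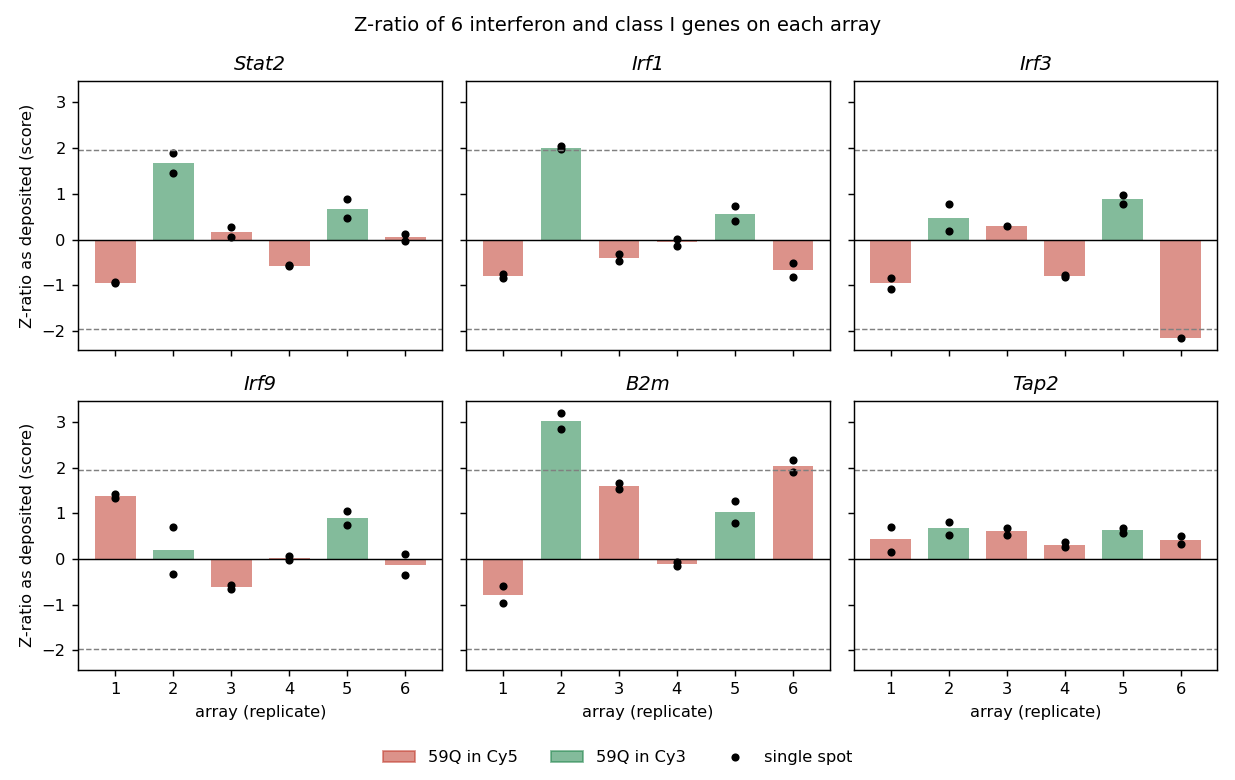
Deposited Z-ratio (score, vertical axis) of the 6 genes on each array (horizontal axis). Bars are the mean of a clone's spots, points are single spots, colours show how 59Q was labelled and dashed lines lie 1.96 above and below 0, the threshold of the methods. The bars of Tap2 stay between 0.315 and 0.673 on every array, those of B2m reach 3.02, and those of Irf1 are above 0 only with 59Q in Cy3.

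In order of their means as deposited the genes were B2m, Tap2, Irf9, Stat2, Irf1 and Irf3. By turned mean the order was Tap2, Irf9, B2m, Stat2, Irf1 and Irf3. Each neighbouring pair in either order differed by less than the larger of its SDs between arrays. The median of the 6 means was 0.233, beside -0.0449 over all 6463 genes tested, and with replicates 2 and 5 turned it was -0.413, beside -0.160. Thus 5 of 6 means were above 0 in the first reading and 1 of 6 in the second, beside 43.1% and 34.6% of all genes. The turn thus lowered the median of all genes as well, though by less than that of the 6 genes. At the study's threshold of 1.96 on single arrays, 4 of the 36 values were past it, those of B2m on replicates 2 and 6 and of Irf1 on replicate 2 above 0 and that of Irf3 on replicate 6 below 0. Over all clones and arrays 4.09% of values were past this threshold. Duplicate spots of the 6 genes differed by 0.0194 to 1.01, with array medians of 0.0856 to 0.404 beside 0.109 to 0.367 over all clones, and their median was above that of all clones on 4 arrays and below it on 2.

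In the limma fit across all features as deposited, 0 of the 6 clones and 0 of the 6 genes were called at an adjusted p under 0.05, where the share over all clones and over all genes was 0%. Of the 6 genes 2 had an unadjusted p under 0.05, as had 169 of 6463 genes. With replicates 2 and 5 turned, 0 of 6 were called again and 3 had an unadjusted p under 0.05, as had 1282 of 6463 genes. Over all features 1.94% of clones and 0.279% of genes were called in that reading. Nothing is read from these counts, because the genes were chosen with this contrast known.

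**Figure D2:**
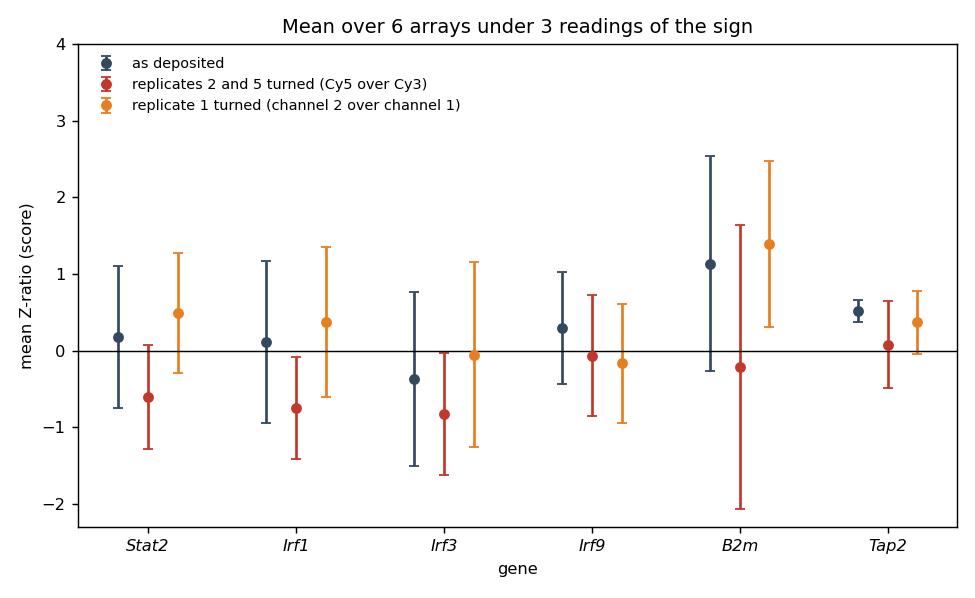
Mean Z-ratio (score, vertical axis) of each gene (horizontal axis) over 6 arrays under 3 readings of the sign, with bars of 1 SD between arrays. As deposited 5 of 6 means lie above 0, and with replicates 2 and 5 turned only that of Tap2 does, at 0.0764.

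For all 6 genes the mean was higher on the arrays with 59Q in Cy3. Both values with 59Q in Cy3 lay above all 4 values with 59Q in Cy5 for 4 of 6 genes (Stat2, Irf1, Irf3 and Tap2), and the reverse held for 0 of 6. Among all clones with 6 values the shares were 20.1% and 12.5%. The mean with 59Q in Cy3 was 1.17 ± 0.701 (SD, n = 2) for Stat2, against -0.326 ± 0.524 (SD, n = 4) with 59Q in Cy5. The corresponding difference was 1.77 for Irf1 and 1.58 for Irf3. It was 1.34 for B2m, 0.378 for Irf9 and 0.211 for Tap2, and the median over 4926 genes on all 6 arrays was 0.367. Hence Stat2, Irf1, Irf3 and B2m stood toward the end of the distribution, with 3.8%, 1.3%, 2.8% and 5.8% of genes above them, whereas Irf9 and Tap2 lay near its middle. Averaging the means of both orientations with equal weight gave 0.424 for Stat2, 0.405 for Irf1, -0.112 for Irf3, 0.356 for Irf9, 1.36 for B2m and 0.545 for Tap2. An effect of the dye and the direction of the deposited values cannot be told apart here.

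**Figure D3:**
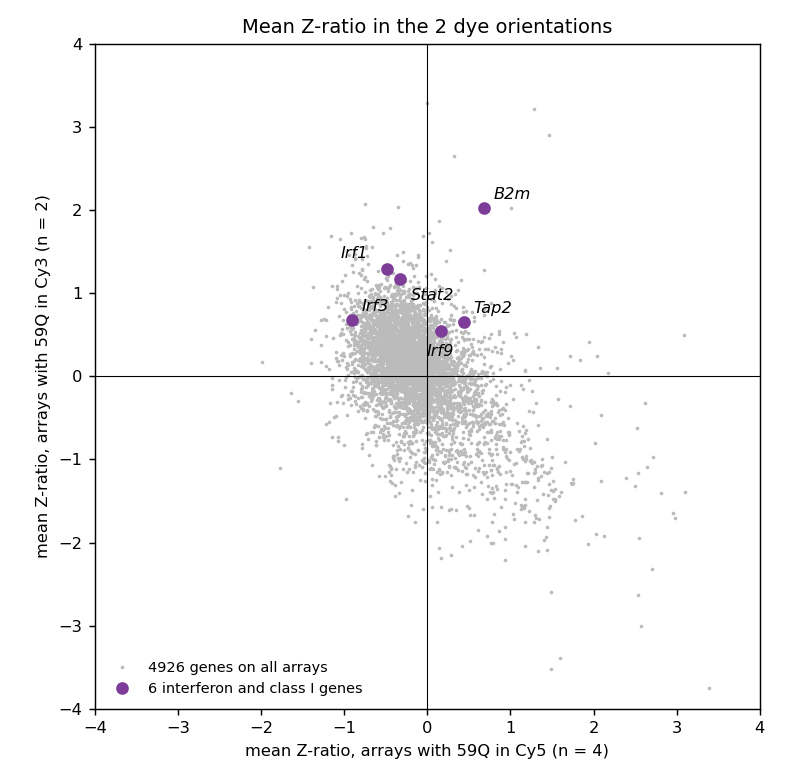
Mean Z-ratio (score) over the 4 arrays with 59Q in Cy5 (horizontal axis) and over the 2 arrays with 59Q in Cy3 (vertical axis), with 1 point per gene on all 6 arrays; 6 genes lie outside the axes. B2m, Tap2 and Irf9 lie above 0 in both orientations with 12% of genes, and Stat2, Irf1 and Irf3 lie at the upper left with 50.8%.

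The likeness of 2 genes was taken as the cosine of the angle between their 6 values, which does not change when the sign of an array is turned. Stat2 and Irf1 were the closest pair of the 6 genes, with a cosine of 0.882 over 6 arrays, followed by Stat2 and B2m at 0.778 and B2m and Tap2 at 0.761. Stat2 and its partner Irf9 had a cosine of -0.133, and B2m and Irf3 had one of -0.0628. These genes share arrays and dye orientation, so a cosine is a description only. Among the other 4925 genes on all 6 arrays, so many genes over so few arrays that some must lie close, Farp1 at 0.987, Crip2 and Acsl4 were most like Stat2. Ube2v2 at 0.988, Usf1 and Cd164 were most like Irf1, and Cuta at 0.985, Nip7 and Bag1 were most like Irf3. Coa7 at 0.979, Tubgcp2 and Snhg7 were most like Irf9. Tfdp1 at 0.953, Stmn1 and Khsrp were most like B2m. For Tap2 they were Rpl30 at 0.964, Gtpbp4 at 0.962 and Bst2, an interferon-induced membrane protein, at 0.932.

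Genes of the same pathway outside the 6 were grouped by role, and 0 of them were called in limma in either reading. Of 9 receptors and kinases 4 were named on the array, with a median of -0.0645, 2 above 0 and 2 below. Jak2, a kinase of the interferon gamma receptor, was at -0.325 ± 0.699 and Jak1 at -0.187 ± 0.457 (SD, n = 6, limma adjusted p = 0.999 for each). Ifngr2 and Ifnar1, receptor subunits for interferon gamma and type I interferons, had means of 0.336 and 0.0584 (turned means -0.282 and -0.492). On replicate 2 Ifngr2 stood at 2.07 and Ifnar1 at 1.09, the highest value of each, as that array was for Stat2, Irf1 and B2m. All 4 turned means lay below 0, with -0.529 for Jak2, -0.241 for Jak1 and a median of -0.387. Over all genes tested the turned median was -0.160, and 34.6% of turned means lay above 0. Of the 4 receptors and kinases 2 had an unadjusted p under 0.05 in the turned reading (Ifnar1 and Jak2, limma adjusted p = 0.217 and 0.231), as had 1282 of 6463 genes.

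Of the other STAT and IRF factors 3 of 15 were named. Stat3, which answers to interleukin 6 and related cytokines, lay below 0 on 6 of 6 arrays, with values from -0.903 to -0.026 averaging -0.484 ± 0.290 (SD, n = 6, limma adjusted p = 0.999). It was the only gene of this list with an unadjusted p under 0.05 as deposited, and with replicates 2 and 5 turned its mean was -0.345. Stat6, the factor of interleukin 4 signalling, was at -0.0693 and Irf8, known from myeloid cells, at 0.361 over 5 arrays (turned means -0.473 and -0.103). Upstream of Irf3, 5 of 16 listed sensors, adaptors and kinases were counted as named. Of these 4 had enough values to be tested, with a median of -0.259 (turned -0.277), 1 above 0 and 3 below in both readings. The RNA sensor Ddx58 was on all 6 arrays but is not in these counts. Its means were -0.109 with 59Q in Cy5 and 1.464 with 59Q in Cy3. Ticam1, the adaptor of Toll-like receptor 3, lay below 0 on 6 of 6 arrays (mean -0.373 ± 0.228, SD, n = 6, limma adjusted p = 0.999, turned mean -0.127). Tank, which binds the kinase Tbk1, lay above 0 on all 4 arrays that measured it (mean 0.817), with 2.20 on replicate 5 and 0.0661 on replicate 4. Its mean with replicates 2 and 5 turned was -0.674. Azi2 and Ikbke had means of -0.241 and -0.278 (turned means -0.428 and 0.398), and Traf6 had 3 values only.

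Negative regulators switch the pathway off again. Of 16 such genes 8 were named, with a median of -0.0633 (turned -0.0695), 3 above 0 and 5 below, and means from -0.490 for Ptpn2, a phosphatase of Jak1, to 0.282 for Pias2 (turned means -0.376 and 0.0120). With the sign of both arrays turned 4 lay above 0 and 4 below.

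In the class I pathway no spot with 1 symbol carried the name of any of the 17 heavy chain genes in the annotation used. The 514 spots with several symbols were not searched, so heavy chains were not analysed here. Of 18 genes of peptide supply and loading 5 were named, with a median of 0.0748, 3 above 0 and 2 below, and a turned median of -0.164, 2 above 0 and 3 below. Tapbp, or tapasin, which holds the heavy chain at the Tap transporter, was above 0 on 5 of 6 arrays, at 0.464 ± 0.664 (SD, n = 6; limma adjusted p = 0.999). Its mean with replicates 2 and 5 turned was 0.262. Psme1, a subunit of the proteasome activator induced by interferon gamma, had a mean of 0.246 and a turned mean of -0.518, with 1.43 on replicate 2 and -1.31 on replicate 1. Calr and Canx, chaperones that fold heavy chains, had means of -0.599 ± 1.40 and 0.0748 ± 0.560 (SD, n = 6), and turned means of 0.782 and -0.291. Fcgrt and Cd1d1, other heavy chains that pair with B2m, had means of 0.00521 and -0.139 (turned means 0.110 and 0.586).

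Interferon-induced effectors had the highest median among these lists as deposited. The lists were chosen with earlier results of these data known, so this rank is a description only. Of 33 genes 7 were named and 6 tested, with a median of 0.453, 4 above 0 and 2 below. With values required on all 6 arrays the median was 0.100. Of the 6 tested, 3 had an unadjusted p under 0.05 (Bst2, Ifitm3 and Igtp, limma adjusted p = 0.999 for each), as had 169 of 6463 genes. The other 3 tested, Isg20, Samhd1 and Tgtp1, had means of 0.100, -0.012 and -0.096. In the turned reading the median was -0.104, with 3 above 0 and 3 below. There 1 of 6 had an unadjusted p under 0.05 (Tgtp1, turned mean -0.659, limma adjusted p = 0.16), as had 1282 of 6463 genes. Bst2, which tethers budding virus to the cell, lay above 0 on 6 of 6 arrays with a mean of 1.95 ± 1.08 (SD, n = 6), and its turned mean was 0.00955. Ifitm3, a membrane protein that blocks virus entry, had Z-ratios of 2.56, 4.23, 2.27, -0.278, 2.20 and 0.574 on replicates 1 to 6, with a mean of 1.92 and a turned mean of -0.219. Ifitm3 and B2m were both highest on replicate 2, while replicate 1 was high for Ifitm3 and lowest for B2m.

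**Figure D4:**
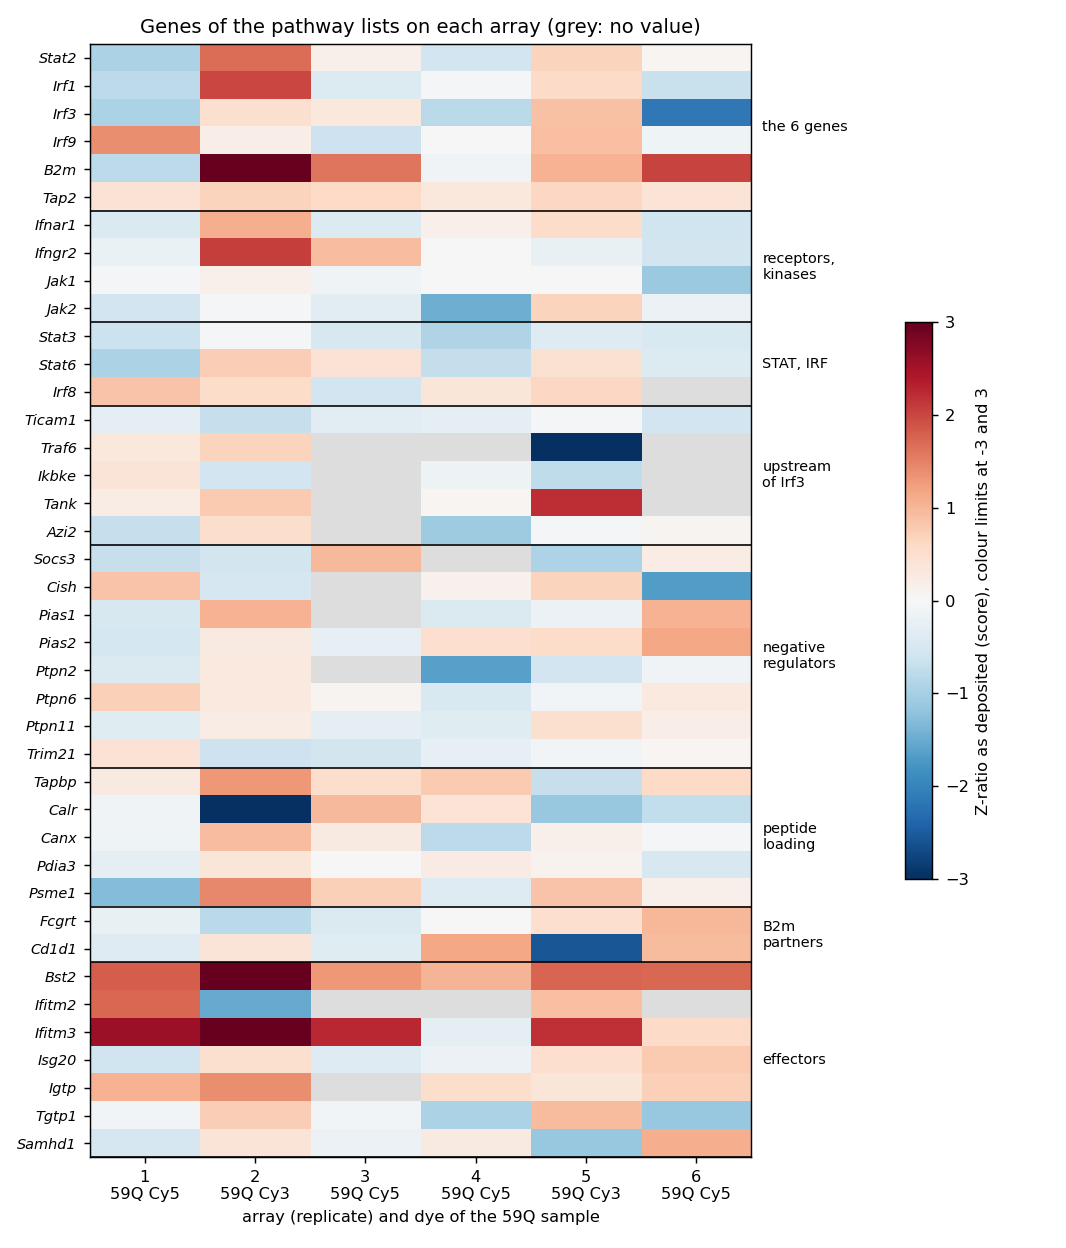
Deposited Z-ratio (score, colour, with limits at -3 and 3) of the 6 genes and of the other named genes of the pathway lists (rows) on each array (columns, with the dye of the 59Q sample); grey marks a missing value. Replicate 2 is red for Irf1, B2m, Ifngr2, Bst2 and Ifitm3 and blue for Calr, and Tap2 is pale red on every array.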

How the data were processed

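Total RNA of 59Q and N3 transfected Neuro-2a cells was compared on 6 two-colour cDNA arrays. The authors labelled RNA by tyramide signal amplification, acquired the slides with GenePix Pro and applied a Z score transformation, and they deposited the resulting Z-ratio, a score, for each spot. The sources used here do not say how background was corrected or spots were filtered. The methods describe 6 replicates from different batches, whereas the series speaks of 4 biological replicates and does not say which arrays form its flip-dye pairs, so p-values over 6 arrays may treat technical repeats as samples.

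Spots were named through the platform annotation: 18384 had 1 symbol, of which 18172 were matched by Entrez ID to RefSeq (GRCm38.p6), 514 had several and 12302 were unnamed here. Neighbouring spots shared an accession in 9449 of 9449 annotated pairs and were averaged into 15600 clones, and a gene is the mean of its clones. Clones and genes on at least 4 arrays were fitted with limma 3.58.1 in R 4.3.3 (intercept, eBayes, Benjamini-Hochberg), which was also tested on simulated data. The genes described and the lists were chosen with earlier results of these data known. Named besides the 6 genes and Tbp are Actb, Eef2 and Eef1a1, which the study reported and which are given by dye orientation only. Also named are, per list, up to 4 genes with the smallest p, and the 3 genes most like each of the 6. Some further genes of the lists, and Ddx58, are named as well. Alternatives covered the sign of arrays, a dye term, quantile normalization, centring and scaling of arrays, the arrays required, the median of spots, clipping at 5, flip-dye pairing, single spots and leaving out each replicate. The TATA letters were chosen after the B2m window had been read. The number of arrays limits the precision.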

Additional observations from a re-analysis of the deposited data

Results flagged for a closer look

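Among 32 genes examined for a single array far from the rest, 2 were picked out, and chance alone picks about 1 in 20 groups. Jak1 had -1.10 on replicate 6, where the other 5 arrays lay between -0.107 and 0.156. Bst2 had 4.06 on replicate 2, where the other 5 arrays lay between 1.03 and 1.82. None of the 6 genes described in the report was picked out in this way.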

How the results depend on the processing

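The direction of the values decided most. Turning the sign of replicates 2 and 5, limma called 279 clones and 18 genes in place of 0 and 0, Tap2 fell to a mean of 0.0764, and the median of interferon-induced effectors was -0.104. With the sign of replicate 1 turned, as for channel 2 over channel 1, Tap2 was at 0.366 and the sensors and kinases upstream of Irf3 at a median of -0.117. Scaling each array by its median absolute deviation moved these to 0.662 and -0.417. Of the 12 flip-dye pairings, the one with the most calls had 1 clone. The cause of these 9 changes was not tested. The other 163 values under alternatives, and all 90 with a replicate left out, stayed within 1 SD between arrays or within 1.5 times the count. The SD was that of each gene or list, 0.144 for Tap2 and 1.40 for B2m, so a wide spread allowed large changes. For B2m the mean of -0.218 with replicates 2 and 5 turned, in place of 1.13, still counted as within it. Over 18 alternatives each, the sign of the mean changed in 1 for B2m, 3 for Irf1, 3 for Stat2, 2 for Irf9 and 0 for Irf3 and Tap2. Leaving out 1 replicate gave 0.757 to 1.52 for B2m and 0.478 to 0.549 for Tap2. No class I heavy chain list could be fitted, since no spot with 1 symbol named any of its genes.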
